A study of Rattus norvegicus with 18 samples.

Results

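Abemaciclib and palbociclib, 2 oral inhibitors of the kinases CDK4 and CDK6, were set against each other in the rat jejunum: 3 arrays of rats given abemaciclib at 120 mg/kg/day against 3 arrays of rats given palbociclib at 100 mg/kg/day, 6 of the 18 arrays of the study. All arrays held RNA of mucosal scrapings, which take the epithelium together with immune, stromal and other cells of the mucosa, from male Sprague Dawley rats aged 6 to 8 weeks that were dosed by gavage once a day. Arrays were chosen by their treatment labels, and 14217 genes were compared, each through the brightest of its probe sets that carry a single gene symbol. Palbociclib was given in methylcellulose and abemaciclib in hydroxypropyl methylcellulose with a detergent in acidic citrate buffer, so compound, dose and vehicle differ together between the groups and cannot be told apart. The 3 vehicle arrays, given beside the values below, came from rats given methylcellulose. Rats of the study were dosed for 4 or 15 days, and the duration behind each array is not labelled. Abemaciclib replicate B carries 100 in its title and 120 as its labelled dose. Nothing ties the arrays to separate animals, so the p-values reflect the spread between arrays, which may be technical.

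CDK4 and CDK6 pair with D-type cyclins and phosphorylate the retinoblastoma protein, which releases E2F factors and lets a cell pass from G1 into S phase. In the small intestine, stem cells at the crypt base and their dividing daughters renew the epithelium, and daughters that leave the crypt stop dividing and become absorptive enterocytes or secretory cells on the villus. Intraepithelial T cells, macrophages and dendritic cells lie among and beneath these cells. Palbociclib is built on a fused pyridopyrimidinone ring, and abemaciclib on a pyrimidine joined to a benzimidazole.

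Levels are log2 signals, so a difference of 1 is a factor of 2, and differences are abemaciclib minus palbociclib. A gene is said to be higher or lower with abemaciclib where its adjusted p, from a limma model over all 18 arrays with adjustment over all genes by the method of Benjamini and Hochberg, was under 0.05. The level of a gene is set only against the same gene on other arrays. The enterocyte fatty acid-binding protein Fabp1 stood between 13.91 and 14.18 on all 6 arrays, and the goblet cell mucin Muc2 between 13.45 and 14.03. Both epithelial genes were thus near the top of the range on every array. The highest signal in the data was 14.34, and differences near it may be understated. Array medians over the study lay between 5.41 and 5.51, and signals near or below them were not shown to exceed background. Where all arrays of the lower group lay below their medians, the fold is given as at least its size against those medians, and where some did, the fold is that of the signals. Where the mean of the higher group lay below those medians too, no fold is given, and such genes still count in the lists. Correlations between arrays were 0.977 to 0.984 within the abemaciclib group, 0.978 to 0.990 within the palbociclib group and 0.944 to 0.971 between them. A measure of RNA quality, the log2 signal of the beta-actin control at its 3′ end minus that at its 5′ end, which rises with degradation, was 1.05, 0.91 and 0.86 with abemaciclib and 0.50, 0.76 and 0.54 with palbociclib. These ranges did not overlap, so a model with this measure added can separate it from the 2 groups only in part. A call lost in that model can reflect lower precision as well as a smaller difference. Counts with the measure are given below, and the part of RNA quality in the differences was not tested.

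The 2 groups differed widely. Of the 14217 genes, 2598 (18.3%) passed, 1623 (11.4%) higher and 975 (6.86%) lower with abemaciclib. The counts of each list below stand beside these shares. Of the calls, 934 were higher and 456 lower by at least 2-fold, and 195 and 93 by at least 4-fold, with a median fold of 2.07. Arrays of the groups did not overlap for 5427 genes (38.2%), among them 2554 of the 2598 called. The count fell to 1344 without abemaciclib replicate A, to 1455 without palbociclib replicate A and to 970 with the RNA quality measure in the model, and 1137 genes passed whichever of the 6 arrays was left out. Higher genes made up 62.5% of the calls, but 28.4% of 4317 calls (1226 higher, 3091 lower) when each array was centred on the median of the genes analysed. That centring moved the median difference over all genes from -0.05 to -0.27, and it was added after seeing the data.

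**Figure D1:**
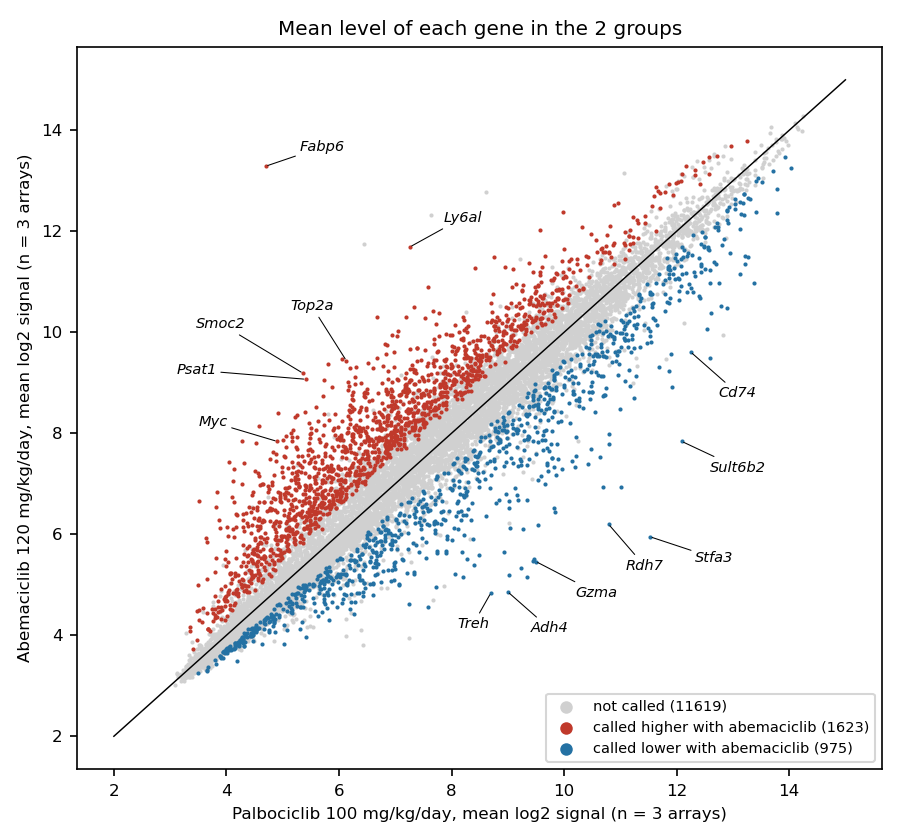
Mean log2 signal of each of 14217 genes with palbociclib 100 mg/kg/day (x axis) and abemaciclib 120 mg/kg/day (y axis), n = 3 arrays each; the line marks equal levels. The 1623 genes called higher (red) lie above the line and the 975 called lower (blue) below it, with Fabp6 farthest from it.

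For most called genes the abemaciclib arrays were the ones that lay away from vehicle. The abemaciclib mean was farther from the vehicle mean for 2365 called genes and the palbociclib mean for 233. Over the called genes the median size of the difference from vehicle was 0.96 with abemaciclib and 0.21 with palbociclib, and over all genes it was 0.24 and 0.15. Both groups share the same vehicle arrays, and these values are a description with no test. The vehicle was methylcellulose, as for palbociclib but not for abemaciclib. Differences from vehicle with abemaciclib thus include any effect of its own vehicle, and the groups are not compared on equal terms.

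The largest difference in the comparison was in Fabp6, the ileal protein that binds bile acids inside enterocytes. Its log2 level was 13.56, 13.35 and 12.95 with abemaciclib and 4.16, 4.43 and 5.52 with palbociclib, while vehicle arrays spread from 5.25 to 8.67. Every abemaciclib array was thus near the top of the array's range and every palbociclib array near or below the array medians. The difference was 8.59 (SE 1.55, limma adjusted p = 0.00154), at least 225-fold with palbociclib arrays below their medians set to them, and the call held in all fits that left out 1 array (highest adjusted p 0.00992). The next largest rise was in Ly6al, of the Ly6 family of surface proteins (4.43, SE 1.14, 21.6-fold, adjusted p = 0.0136 in limma). Its levels were 12.13, 11.22 and 11.73 with abemaciclib and 5.81, 5.03 and 10.94 with palbociclib, so palbociclib replicate C lay close to the abemaciclib arrays. The Ly6al call was lost without abemaciclib replicate A or palbociclib replicate A or B (highest adjusted p 0.0716) and with the RNA quality measure.

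The other 8 of the 10 largest rises lay between 3.41 and 3.84 on the log2 scale. The crypt-base stem cell marker Smoc2 stood at 9.73, 9.10 and 8.76 with abemaciclib and 4.54, 6.52 and 5.01 with palbociclib (14.3-fold, adjusted p = 0.000509 in limma). Other Smoc2 probe sets differed by 0.01 and 0.03 on the log2 scale. Psat1, an enzyme of serine synthesis, was at 9.32, 8.75 and 9.12 against 4.86, 5.67 and 5.69 (12.6-fold, adjusted p = 0.000117). Psat1 arrays with palbociclib were thus close to the vehicle arrays, at 5.47, 6.07 and 5.29. The rest were the replication clamp partner Pclaf (12.4-fold), the mitotic kinase Cdk1 (11.8-fold), the LIM-domain protein Csrp2 (3.56, at least 5.24-fold), the replicative helicase subunit Mcm4 (3.56, at least 6.47-fold), Ccna2, which encodes cyclin A (11.2-fold), and the progenitor transcription factor Myb (10.7-fold). Calls for Pclaf and Myb were lost without palbociclib replicate A (adjusted p = 0.0658 and 0.0576 in limma), which had the lowest level of both.

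Among the 10 largest falls, Rdh7, a retinol dehydrogenase, was at 6.00, 6.85 and 5.75 with abemaciclib and 11.11, 10.87 and 10.38 with palbociclib (-4.59, SE 0.58, 24.0-fold lower, limma adjusted p = 0.000148). Slc28a1, a nucleoside transporter, was at 5.01, 5.56 and 5.46 against 9.63, 9.05 and 9.04 (14.9-fold lower, adjusted p = 4.01e-05), and Adh4, an alcohol dehydrogenase, at 4.92, 5.14 and 4.52 against 9.20, 9.05 and 8.76 (at least 11.7-fold lower, adjusted p = 0.000412). For these 3 genes the palbociclib and vehicle arrays overlapped. Granzyme A (Gzma), a protease of cytotoxic lymphocytes, was at 4.94, 4.76 and 6.66 against 10.04, 9.78 and 8.69 (16.5-fold lower, adjusted p = 0.00106). Other falls were in Stfa3, a protease inhibitor of the stefin family (47.9-fold), the sulfotransferase Sult6b2 (19.0-fold), the glucuronosyltransferase Ugt2b35 (18.4-fold), the MHC class II chain RT1-Bb (16.8-fold), the secreted lectin-like protein Reg1a (15.5-fold) and the cytochrome P450 Cyp2s1 (15.4-fold). The calls of these 6 were lost in at least 1 fit that left out an array and with the RNA quality measure. Ugt2b35 lost its call with any of the 6 arrays left out, and another probe set of Stfa3 differed by -0.05. Vehicle arrays alone spread from 6.44 to 12.05 for RT1-Bb, from 6.03 to 10.47 for Ugt2b35 and from 7.36 to 11.21 for Stfa3.

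**Figure D2:**
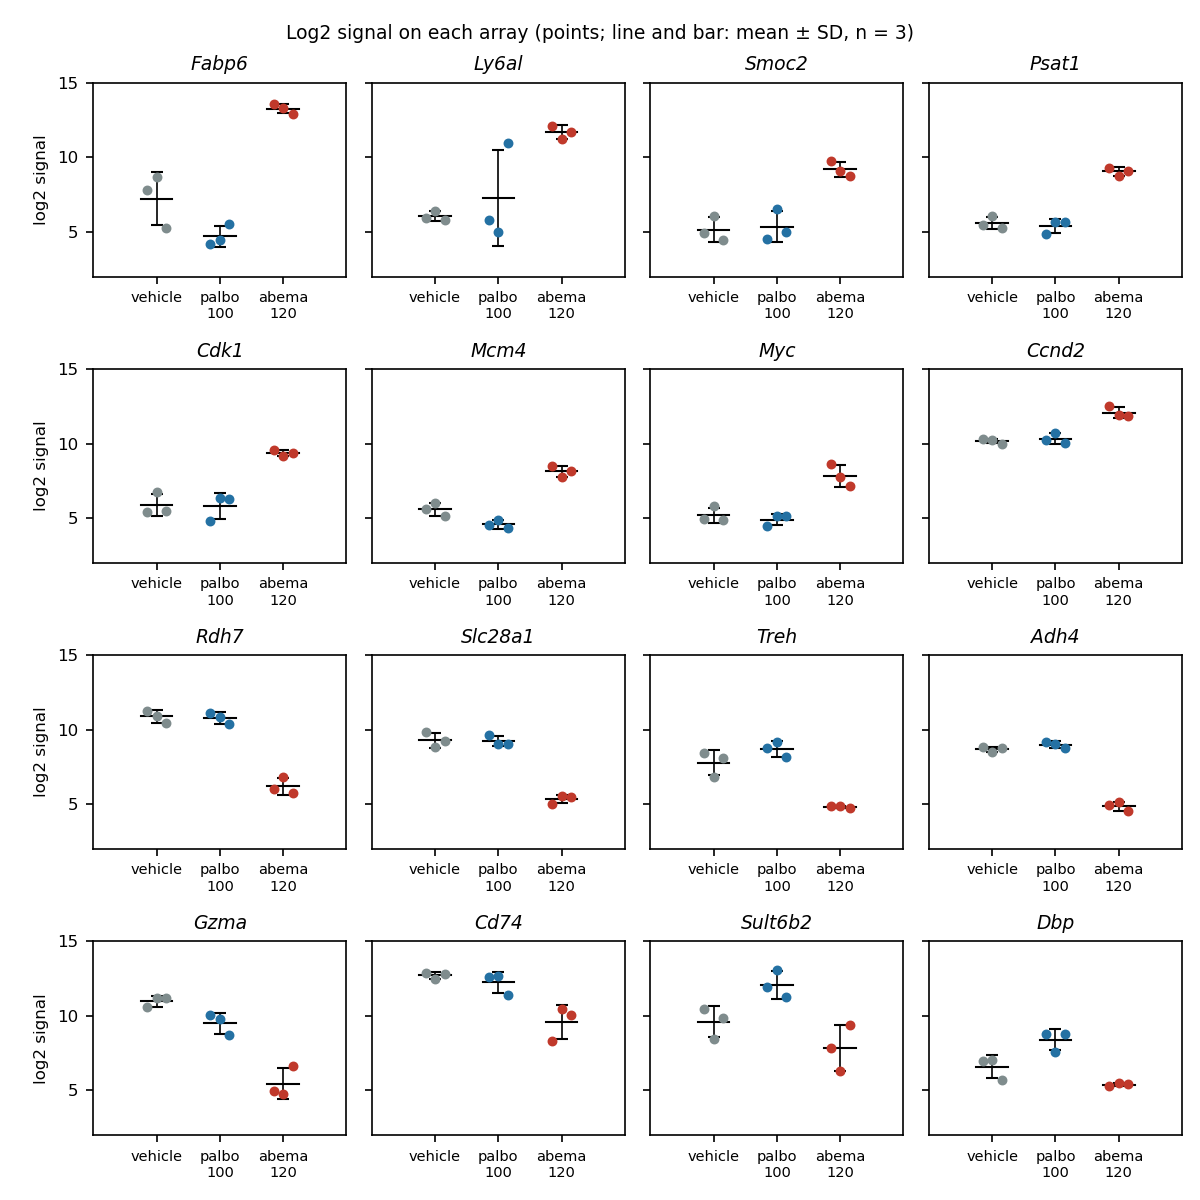
Log2 signal of 16 named genes on each vehicle, palbociclib 100 and abemaciclib 120 array (points), with the group mean and SD (line and bar, n = 3). For Fabp6 the abemaciclib arrays lie between 12.95 and 13.56 and the palbociclib arrays between 4.16 and 5.52; for Sult6b2 and Dbp the palbociclib arrays lie above vehicle.

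Genes of cell division were higher with abemaciclib than with palbociclib. Of 52 measured genes for G2 phase and mitosis, 52 were higher, beside 11.4% of all genes. Arrays of the groups did not overlap for any of them, whereas that held for 38.2% of all genes. Their median difference was 2.36 (5.13-fold), against -0.05 over all genes. Cenpa (4.33 with abemaciclib, 3.91 with palbociclib) and Cdc25b (4.85, 4.36) had means below the array medians in both groups. The median over the list, relative to the palbociclib mean, was 2.61, 2.20 and 2.44 on the 3 abemaciclib arrays. Relative to vehicle the list median was 2.40 with abemaciclib and -0.03 with palbociclib. The count was 47 to 51 with any 1 array left out and 42 with the RNA quality measure.

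Many promoters of the mitotic genes held the letters of an element known from such genes. The cell cycle genes homology region, or CHR, is a short element bound by the MuvB complexes that act on late cell cycle genes. Of 46 G2/M promoters in the RefSeq table (GRCr8, 250 bases before to 50 after the start), 31 (67.4%) held its letters, TTTGAA on either strand, against 18.1% of all 27457 promoters and 12.3% of those of the genes compared. The CCAAT box, CCAAT on either strand, was in 35 (76.1%) against 37.7% of all. The 250 bases before the start are shown for 3 mitotic genes that were higher, chosen after their values were seen, with the CHR letters in capitals. They stand 72 and 16 bases before the start in Cdk1, 51 in Cdc20, and 214 and 43 in Ccnb2, counted to the first letter.
Cdk1, chr20:19265043-19265292, plus strand: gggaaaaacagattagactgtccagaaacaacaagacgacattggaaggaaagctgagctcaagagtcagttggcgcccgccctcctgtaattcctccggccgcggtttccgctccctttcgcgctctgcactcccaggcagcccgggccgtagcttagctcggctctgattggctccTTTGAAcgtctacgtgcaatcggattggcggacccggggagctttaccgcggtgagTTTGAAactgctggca
Cdc20, chr5:137255800-137256049, minus strand: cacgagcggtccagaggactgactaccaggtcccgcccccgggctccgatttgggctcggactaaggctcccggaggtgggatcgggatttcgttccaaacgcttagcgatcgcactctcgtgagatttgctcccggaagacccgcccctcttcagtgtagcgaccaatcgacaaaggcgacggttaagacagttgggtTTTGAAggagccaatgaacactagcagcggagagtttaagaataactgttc
Ccnb2, chr8:79981659-79981908, minus strand: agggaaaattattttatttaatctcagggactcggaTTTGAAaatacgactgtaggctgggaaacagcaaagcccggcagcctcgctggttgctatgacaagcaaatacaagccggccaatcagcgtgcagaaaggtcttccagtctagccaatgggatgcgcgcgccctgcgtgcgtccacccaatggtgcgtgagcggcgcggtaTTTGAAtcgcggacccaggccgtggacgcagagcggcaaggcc

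Cdk1, the kinase that drives entry into mitosis, was at 9.60, 9.14 and 9.37 with abemaciclib and 4.80, 6.32 and 6.29 with palbociclib (3.57, SE 0.66, 11.8-fold, limma adjusted p = 0.00185). Its lowest level was on palbociclib replicate A, below the vehicle arrays at 5.44, 6.75 and 5.48. Ttk, a spindle checkpoint kinase, was at 7.70, 6.88 and 7.29 against 3.94, 4.18 and 4.31 (at least 3.57-fold, adjusted p = 3.54e-05), although another Ttk probe set differed by 0.68. Top2a, the topoisomerase that untangles replicated DNA, was at 9.61, 9.11 and 9.60 against 5.41, 6.56 and 6.42 (9.94-fold, adjusted p = 0.0022). None of these 3 genes had overlapping arrays. Cdc20, which activates the anaphase-promoting complex, differed by 2.57 and Ccnb2, a B-type cyclin, by 2.56. The kinesin Kif22 (7.28-fold), the centriole kinase Plk4 (at least 3.49-fold), the checkpoint protein Bub1b (at least 1.42-fold) and the transcription factor Foxm1 (at least 1.95-fold) were also higher, as was Shcbp1 (at least 3.98-fold). Another Foxm1 probe set differed by 0.10 and did not pass. The proliferation marker Mki67 was at 10.47, 9.90 and 9.51 against 7.74, 8.06 and 7.94 (4.14-fold, adjusted p = 0.0348 in limma), and its call was lost with any 1 of the 6 arrays left out (highest adjusted p 0.136).

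DNA replication genes differed in the same direction. Of 42 genes for G1/S and replication, 35 were higher, 0 were lower and 7 did not pass, with a median of 1.43 (2.69-fold). Some called members, such as E2f7 (4.12 with abemaciclib, 3.67 with palbociclib) and Orc1 (4.29, 3.76), had means below the array medians in both groups. The list median was 1.28 relative to vehicle with abemaciclib and -0.17 with palbociclib. Mcm4 was at 8.52, 7.76 and 8.15 with abemaciclib and 4.52, 4.90 and 4.33 with palbociclib (3.56, SE 0.41, limma adjusted p = 8.23e-05). Here the palbociclib arrays lay below all vehicle arrays, at 5.58, 6.00 and 5.16. Mcm6, another helicase subunit, was at 8.92, 8.24 and 8.10 against 5.06, 5.92 and 5.18 (8.18-fold, adjusted p = 0.000101), with vehicle at 6.52, 6.75 and 6.12. Mcm2 (5.62-fold), Cdk2, the partner of cyclin E (4.37-fold), the E2F family repressor E2f8 (at least 1.62-fold) and Uhrf1, which maintains DNA methylation (at least 1.63-fold, adjusted p = 1.35e-05 in limma), were higher too. Among the 7 that did not pass were Ccne2, a cyclin E (0.20), and E2f2 (0.38).

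E2F sites are known from many replication genes. Of 35 G1/S promoters, 12 (34.3%) held TTTCCCGC or TTTGGCGC on either strand, against 1.53% of all promoters and 2.58% of those of genes compared, and 0 of the 46 G2/M promoters did. The 250 bases before the start of Mcm6 and Pclaf are shown as examples that hold these letters, chosen after their values were seen. Both genes were higher by over 3 on the log2 scale, as were others not shown, and Pclaf is not among the 35 promoters. In capitals are the E2F letters, which begin 139 and 45 bases before the start and lie in Pclaf on the reverse strand.
Mcm6, chr13:42404353-42404602, minus strand: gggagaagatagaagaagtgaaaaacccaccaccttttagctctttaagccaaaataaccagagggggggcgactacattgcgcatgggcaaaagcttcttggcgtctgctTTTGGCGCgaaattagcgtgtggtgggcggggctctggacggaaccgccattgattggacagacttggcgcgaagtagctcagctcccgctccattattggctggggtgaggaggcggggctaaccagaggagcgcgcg
Pclaf, chr8:75315467-75315716, plus strand: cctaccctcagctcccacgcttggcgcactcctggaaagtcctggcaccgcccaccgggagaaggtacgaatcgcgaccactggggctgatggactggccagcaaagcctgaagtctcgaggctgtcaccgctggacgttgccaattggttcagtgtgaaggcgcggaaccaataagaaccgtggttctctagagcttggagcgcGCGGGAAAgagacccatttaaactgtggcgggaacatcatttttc

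The genes of CDK4, CDK6 and their partners did not move as 1 group. Of 20, 8 were higher, 4 lower and 8 did not pass (60.0% called, beside 18.3% over all genes), with a median of 0.28. Among those lower, Cdkn2a had means below the array medians in both groups (3.72 with abemaciclib and 4.14 with palbociclib). Cdk4 was at 9.79, 9.23 and 9.27 with abemaciclib and 7.17, 7.55 and 7.42 with palbociclib (2.05, SE 0.46, 4.15-fold, limma adjusted p = 0.00588). Cdk6 was at 4.20, 4.31 and 4.24 against 4.12, 4.04 and 4.38 (0.07, 95% interval -0.16 to 0.31, adjusted p = 0.679), below the array medians on every array. The D cyclins were all higher, Ccnd2 at 12.54, 11.89 and 11.83 against 10.22, 10.72 and 10.02 (3.41-fold, adjusted p = 0.00137). Ccnd1 was 3.30-fold higher (adjusted p = 0.0325 in limma) and Ccnd3 1.73-fold (0.0306), and both calls were lost in 5 of the 6 fits without an array. The retinoblastoma relative Rbl1 (1.73-fold) and E2f5, a factor that works with Rb relatives (at least 2.15-fold), were higher.

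Among the inhibitors of these kinases, Cdkn1c, which encodes p57, was at 6.00, 5.56 and 5.39 with abemaciclib and 9.46, 10.06 and 7.26 with palbociclib (9.68-fold lower, adjusted p = 0.00156 in limma). Its vehicle arrays were at 8.00, 9.18 and 9.76, within the palbociclib range. Cdkn2d, which encodes p19, was at 6.53, 6.54 and 6.72 against 7.14, 7.49 and 7.61 (1.76-fold lower, adjusted p = 0.0399), with vehicle higher than both at 8.23, 8.28 and 8.38. Rb1 was 1.48-fold lower (adjusted p = 0.0422). The calls of Cdkn2d and Rb1 were lost with any 1 array left out. Cdkn1a, which encodes p21, was at 10.52, 10.50 and 10.74 against 10.70, 10.47 and 10.01 (0.19, interval -0.30 to 0.69, adjusted p = 0.592), with overlapping arrays. In place of 12, the list had 3 called members with the RNA quality measure and 5 or 6 without any 1 array other than abemaciclib replicate B.

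Of 14 genes of CDK9 and transcription elongation, 1 was higher, Cdk9 itself (0.69), a share of 7.14% beside 11.4% higher over all genes, and the median was 0.12. The list had 0 calls without abemaciclib replicate A or palbociclib replicate A, with the mean of all probe sets and with the RNA quality measure (1 at an unadjusted p under 0.05 in limma with that measure), and 2 higher without abemaciclib replicate B. With centring on the genes analysed it had 0 higher and 1 lower and a median of -0.10. Hexim1, which holds CDK9 inactive, was at 8.50, 8.06 and 8.53 with abemaciclib and 8.88, 8.58 and 8.50 with palbociclib (-0.29, interval -1.09 to 0.51, limma adjusted p = 0.628). Both groups lay below the vehicle arrays, at 9.44, 9.61 and 9.65.

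Most genes that build ribosomes were higher with abemaciclib. Of 45 ribosome biogenesis genes, 42 were higher and 0 lower, with a median of 1.72 (3.30-fold), and relative to vehicle the median was 1.57 with abemaciclib and -0.09 with palbociclib. Myc, the transcription factor that drives many of them, was at 8.62, 7.76 and 7.14 with abemaciclib and 4.47, 5.11 and 5.12 with palbociclib (2.94, SE 0.49, at least 5.24-fold, limma adjusted p = 0.000908). Rrs1, a ribosome assembly factor, was at 8.35, 7.61 and 8.07 against 4.57, 5.36 and 5.49 (7.32-fold, adjusted p = 0.000336). Arrays of neither gene overlapped. Polr1e (at least 2.28-fold) and Polr1b (at least 2.09-fold), subunits of RNA polymerase I, and Heatr1 (at least 2.29-fold), Ppan (3.36-fold) and Nolc1 (2.90-fold), of nucleolar RNA processing, were higher, while Polr1a, the largest subunit of that polymerase, differed by 0.70 and did not pass. Other Nolc1 probe sets differed by 2.50, 0.38 and 0.09. With the RNA quality measure 26 of the 45 were called.

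The E-box CACGTG, the letters that Myc with its partner Max binds best, was in 18 of 42 ribosome biogenesis promoters (42.9%), against 6.65% of all and 8.92% of those of genes compared. Shown are the 250 bases before the start of Gnl3, a nucleolar GTP-binding protein (1.68), and Pes1, a factor of large subunit maturation (1.51), with the E-box in capitals. It begins 25 bases before the start in Gnl3 and 50 in Pes1.
Gnl3, chr16:6219783-6220032, minus strand: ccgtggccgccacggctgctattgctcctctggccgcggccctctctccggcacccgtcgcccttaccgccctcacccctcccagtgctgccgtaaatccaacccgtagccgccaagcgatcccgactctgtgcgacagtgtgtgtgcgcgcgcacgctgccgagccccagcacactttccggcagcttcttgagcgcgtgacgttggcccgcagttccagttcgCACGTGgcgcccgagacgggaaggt
Pes1, chr14:83074096-83074345, plus strand: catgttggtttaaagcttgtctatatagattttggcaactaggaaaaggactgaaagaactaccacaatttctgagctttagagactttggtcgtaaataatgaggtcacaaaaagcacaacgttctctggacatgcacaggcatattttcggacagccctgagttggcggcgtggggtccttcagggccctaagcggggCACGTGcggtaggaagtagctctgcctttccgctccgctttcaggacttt

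Mitochondrial protein synthesis, chaperones and amino acid supply had higher members too. Of 32 genes for mitochondrial ribosomal proteins and import, 13 were higher and 0 lower (median 0.89), led by Mrps7 (3.64-fold), Mrps26 (3.17-fold) and Mrps2 (3.10-fold). Other probe sets differed by 0.18 for Mrps26 and by -0.06 and -0.10 for Mrps2, and the Mrps2 call was lost with the mean of its probe sets. Of 20 heat shock and chaperone genes, 10 were higher and 0 lower (median 0.86), among them the cytosolic chaperonin subunits Tcp1 (3.10-fold), Cct2 (2.37-fold) and Cct5 (2.01-fold), the mitochondrial chaperonin Hspd1 (3.06-fold) and the chaperone Hsp90ab1 (2.80-fold). Hspa1a was higher too (2.78-fold), and the part of a stress response in these values was not tested. With the RNA quality measure the counts were 1 of 32 and 0 of 20, and of the latter 11 were under 0.05 in limma before adjustment. Without abemaciclib replicate A or C, or palbociclib replicate A or C, the counts were 2, 3, 2 and 6 of the 32 and 1, 4, 1 and 5 of the 20, and without palbociclib replicate B 5 of the 32 were called. With only the 2 groups fitted, 20 of the 32 were. Nuclear genes of the respiratory chain had 0 of 35 called in limma (0 at an unadjusted p under 0.05) and a median of -0.02.

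Of 30 genes of the integrated stress response and serine and asparagine synthesis, 9 were higher and 1 lower (median 0.53). Members that were higher included enzymes of serine and asparagine synthesis and amino acid carriers. Phgdh, the first enzyme of serine synthesis, was at 8.21, 7.13 and 6.92 with abemaciclib and 5.44, 5.50 and 5.48 with palbociclib (3.86-fold, limma adjusted p = 0.000429), and Asns, asparagine synthetase, at 7.99, 7.16 and 8.29 against 6.27, 6.92 and 5.65 (2.89-fold, adjusted p = 0.00588). The amino acid carriers Slc7a5 (2.60-fold) and Slc7a11 (2.94-fold) and the serine enzyme Shmt2 (2.13-fold) were higher as well. Slc7a11 arrays overlapped, at 7.51, 6.14 and 8.29 against 6.46, 5.85 and 4.96. Its call was lost without abemaciclib replicate A or C or palbociclib replicate C, and with only the 2 groups fitted. The Shmt2 call was lost without replicate A or C of either group. Both were lost with the RNA quality measure. The 1 member that was lower was Ddit3, the stress factor CHOP (-1.71), and the stress factors Atf4 (-0.03) and Atf3 (0.04) did not pass. Of 22 unfolded protein response genes, 0 were called in limma (median 0.32), 5 at an unadjusted p under 0.05. Of the 10 stress response calls, 4 remained in number with the RNA quality measure, 4 without abemaciclib replicate A or C or palbociclib replicate C, and 6 without palbociclib replicate A.

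Cholesterol synthesis had 4 of 20 genes higher, Cyp51 (3.99-fold), Msmo1 (2.93-fold), Hsd17b7 (2.22-fold) and Acat2 (2.14-fold), and 1 lower, Tm7sf2 (2.72-fold), with a median of 0.65. Cyp51, a sterol demethylase, was at 11.53, 11.11 and 11.46 with abemaciclib and 8.67, 9.86 and 9.58 with palbociclib (limma adjusted p = 0.0245). Sqle, squalene epoxidase, differed by 1.72 and did not pass (adjusted p = 0.0564). The 4 rises were each lost in at least 3 of the fits without an array and with the RNA quality measure, whereas 9 were called with only the 2 groups fitted.

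**Figure D3:**
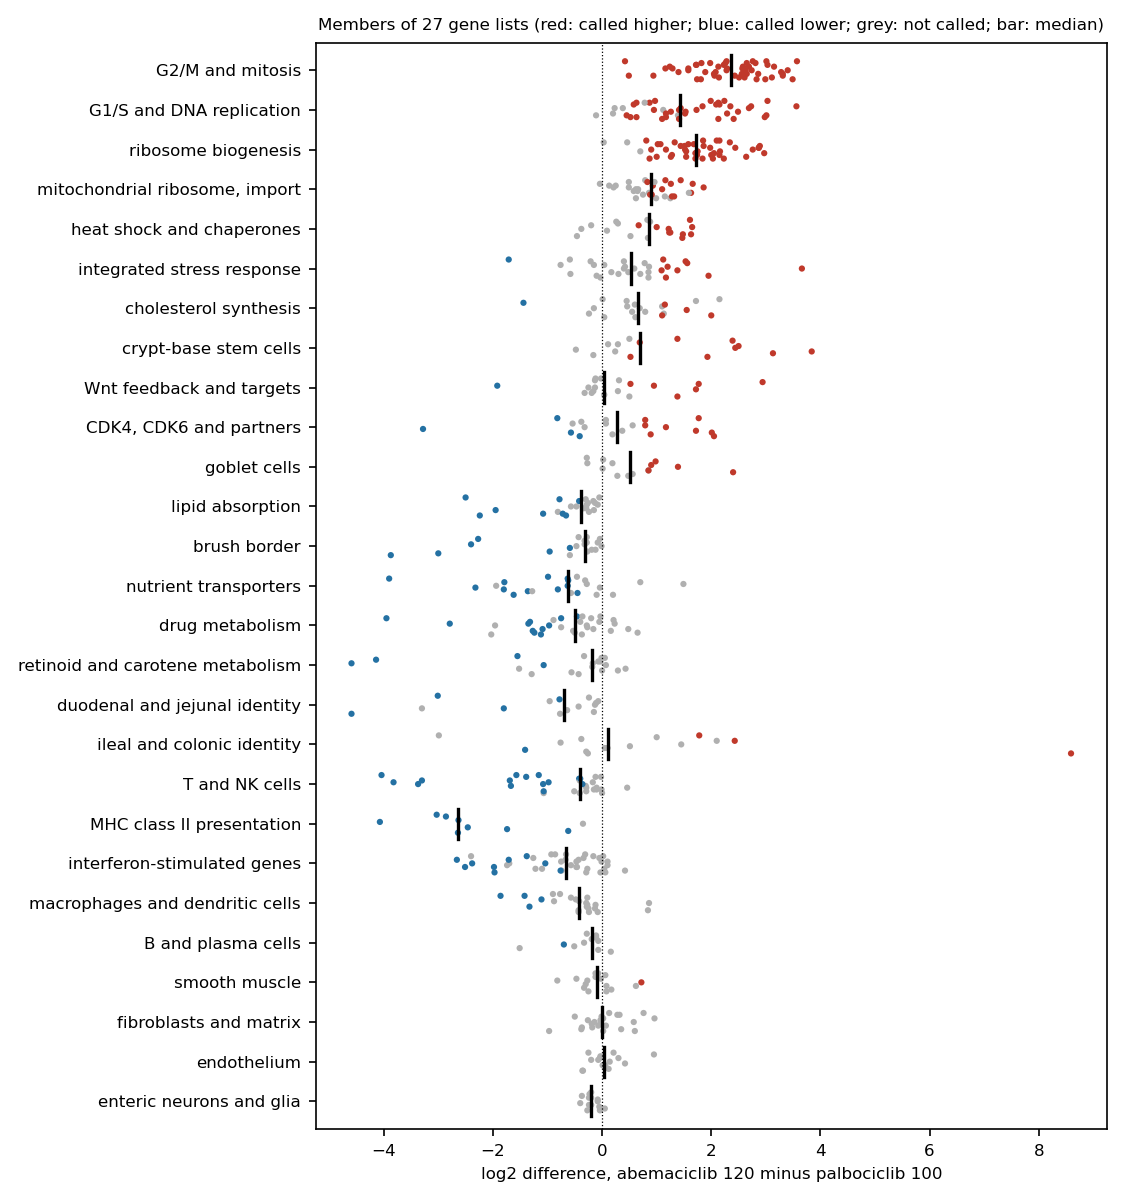
Log2 difference (abemaciclib 120 minus palbociclib 100) of each measured member of 27 gene lists, coloured by call, with the list median as a bar. The G2/M and mitosis list has its median at 2.36 and MHC class II presentation at -2.63; the lists of smooth muscle, fibroblast, endothelial and neural genes have medians between -0.20 and 0.03.

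Crypt-base stem cell genes were higher in part. Of 15, 9 were higher and 0 lower, with a median of 0.69 (0.70 relative to vehicle with abemaciclib and 0.17 with palbociclib). The water channel Aqp4 was at 7.06, 6.20 and 6.68 with abemaciclib and 3.39, 3.61 and 3.56 with palbociclib (at least 2.29-fold, limma adjusted p = 0.00011), with other probe sets of the gene at 0.57 and 0.09. Cdca7, a nuclear protein of stem and dividing cells, was at 8.52, 8.16 and 7.27 against 5.28, 5.53 and 5.65 (5.64-fold). The membrane protein Prom1 (5.23-fold), the chloride and potassium cotransporter Slc12a2 (5.44-fold) and the growth factor receptor inhibitor Lrig1 (3.80-fold) were higher. Lgr5, the R-spondin receptor that marks these cells, was at 4.66, 4.94 and 4.18 against 3.88, 4.24 and 4.08 (0.52, adjusted p = 0.0218). Its arrays overlapped, all below the array medians, and the call was lost in 4 of the 6 fits without an array. Ascl2, a stem cell transcription factor, differed by 0.29 and did not pass. The count was 5 without abemaciclib replicate A and with the RNA quality measure.

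Wnt signals maintain these crypt cells, and 6 of 19 Wnt feedback and target genes were higher and 1 lower, around a median of 0.04 (-0.18 with centring on the genes analysed). Calls made up 36.8% of this list, beside 18.3% over all genes. Beside Myc, Ccnd1 and Lgr5, those higher were Axin2, a feedback inhibitor, at 8.58, 8.51 and 7.25 with abemaciclib and 6.98, 6.86 and 6.37 with palbociclib (2.60-fold, limma adjusted p = 0.012), the crypt receptor Ephb3 (at least 1.54-fold) and the receptor-degrading ligase Znrf3 (0.95). Znrf3, like Lgr5, lay below the array medians on all 6 arrays. Frat2, a protein that binds the kinase GSK3, was at 7.07, 7.57 and 8.10 against 9.57, 9.47 and 9.48 (-1.92, SE 0.33, 3.79-fold lower, adjusted p = 0.00109). For Frat2 the palbociclib arrays lay just below vehicle, at 9.70, 9.73 and 9.74. Nkd1 (-0.02) and Tcf7 (0.04) did not pass. The 7 calls became 3 without abemaciclib replicate A or palbociclib replicate C, 4 without palbociclib replicate A and 2 with the RNA quality measure.

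Among secretory cell markers, some goblet cell genes were higher and a few enteroendocrine and tuft cell genes lower with abemaciclib. Of 14 goblet cell genes, 5 were higher and 0 lower (median 0.52), a share of 35.7% beside 11.4% higher over all genes. They were the transcription factors Spdef (2.62-fold) and Creb3l4 (1.80-fold), the mucin-folding disulfide isomerase Agr2 (1.87-fold), Bcas1 (1.97-fold) and the secreted inhibitor Spink4 (5.26-fold). Spdef was at 9.78, 8.90 and 9.69 with abemaciclib and 8.29, 8.10 and 7.81 with palbociclib (limma adjusted p = 0.00319). Muc2 was at 14.03, 13.90 and 13.90 against 13.77, 13.76 and 13.45 and did not pass (0.28, interval 0.05 to 0.52, adjusted p = 0.0912). Spink4 lost its call with any 1 array left out, and the goblet count was 1 with the RNA quality measure, 2 without abemaciclib replicate A and 3 without palbociclib replicate C. Of 7 Paneth cell genes, 0 passed in limma (median 0.07), 1 at an unadjusted p under 0.05, and the antimicrobial Defa24 differed by 2.24 without passing. Of 18 enteroendocrine genes, the hormones Gip (-1.54) and Sst (-1.25) were lower, a share of 11.1% beside 6.86% lower over all genes, and 4 were lower with quantile normalization or centring on the genes analysed. Of 8 tuft cell genes, Alox5 (-0.57) and Alox5ap (2.14-fold), which make leukotrienes and are also expressed by leukocytes, were lower, and the tuft cell factor Pou2f3 did not pass (-0.13, adjusted p = 0.677). Both tuft calls were lost without abemaciclib replicate A and with the RNA quality measure.

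Part of the genes of mature absorptive cells were lower with abemaciclib, while most brush border and lipid absorption genes did not pass. Among 19 brush border genes, 6 were lower and 0 higher, beside 6.86% lower over all genes (median -0.32). Treh, which splits trehalose, was at 4.86, 4.89 and 4.75 with abemaciclib and 8.75, 9.19 and 8.17 with palbociclib (-3.87, at least 9.50-fold lower, limma adjusted p = 0.000132). Intestinal alkaline phosphatase, Alpi, was at 10.29, 11.32 and 9.95 against 12.75, 13.03 and 12.60 (4.83-fold lower, adjusted p = 0.0202). The dipeptidase Ace was 5.26-fold, the glutathione enzyme Ggt1 8.02-fold, and the peptidase Mme 1.94-fold lower, and the peptidase Mep1b was lower by -0.59 on the log2 scale. The peptidase Anpep (-0.08) and the microvillus protein Vil1 (-0.19) did not pass, so members of the same membrane differed. Alpi lost its call in 4 fits without an array, abemaciclib replicate A among them, and 3 of the 6 brush border calls were left with the RNA quality measure.

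Of 23 nutrient transporters, 12 were lower and 0 higher (median -0.63), and relative to vehicle the median was -0.53 with abemaciclib and 0.10 with palbociclib. The facilitated sugar carrier Slc2a2 was at 10.84, 9.99 and 12.08 with abemaciclib and 12.84, 12.81 and 12.64 with palbociclib (3.46-fold lower, limma adjusted p = 0.00379). The fructose carrier Slc2a5 was at 8.59, 8.95 and 9.92 against 11.27, 10.90 and 10.70 (3.48-fold lower, adjusted p = 0.00471). The folate carrier Slc46a1 was 4.98-fold, and the cystine and basic amino acid carrier subunits Slc3a1 and Slc7a9 2.56-fold and 1.55-fold lower. Slc15a1, the peptide carrier, differed by -0.46 and did not pass. With the RNA quality measure 3 of the 12 were called.

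Of 22 lipid absorption genes, 8 were lower and 0 higher, a share of 36.4% beside 6.86% lower over all genes (median -0.38). The sterol exporter subunits Abcg8, at 6.94, 8.00 and 7.03 with abemaciclib and 10.28, 9.46 and 9.73 with palbociclib (5.65-fold lower, limma adjusted p = 0.000365), and Abcg5 (3.86-fold lower) were lower. Cd36, which takes up fatty acids, was at 9.21, 11.08 and 10.87 against 12.86, 12.31 and 12.70 (4.71-fold lower), with its lowest level on abemaciclib replicate A. Apoc3 (2.11-fold) and the glyceride acyltransferases Mogat2 (1.58-fold) and Dgat1 (1.34-fold) were lower too. Fabp1 (-0.13, interval -0.28 to 0.02, adjusted p = 0.227) and Fabp2 (-0.15, interval -0.34 to 0.05, adjusted p = 0.286), the abundant fatty acid-binding proteins, did not pass in limma. Both lay near the highest signal in the data, 14.34, where a difference may be understated. Calls in the list came to 16 with centring on the genes analysed to 4 with the RNA quality measure and to 5 without abemaciclib replicate A or palbociclib replicate A.

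Genes that mark regions of the gut gave calls in both directions. Beside Fabp6, 2 ileal genes of bile acid handling were higher: Slc10a2, the bile acid importer, at 8.10, 6.37 and 9.26 with abemaciclib and 6.19, 5.47 and 4.78 with palbociclib (5.39-fold, limma adjusted p = 0.0195), and Nr1h4, the bile acid receptor, at 9.06, 8.26 and 9.61 against 7.09, 7.31 and 7.18 (3.43-fold, adjusted p = 0.0159). Abemaciclib replicate B was the lowest of its group for both, and both calls were lost without abemaciclib replicate A or C and with the RNA quality measure. Slc51a, of the bile acid exporter, differed by 0.05, and Amn, of the ileal vitamin receptor for cobalamin, was 2.65-fold lower. Of the 15 ileal and colonic genes 3 were thus higher and 1 lower (median 0.10, and -0.12 with centring on the genes analysed). That is a share of 26.7% called beside 18.3% over all genes. Of 14 duodenal and jejunal genes, 4 were lower and 0 higher (median -0.70): Rdh7, Slc2a5, the iron exporter Slc40a1 and the apolipoprotein Apoa4 (1.72-fold). The proximal transcription factor Gata4 differed by -0.77 and Pdx1 by -0.96 without passing. Of these 4, 2 were called without any 1 array other than abemaciclib replicate B, and 1 with the RNA quality measure, against 7 with centring on the genes analysed. Of 7 genes listed for the duodenal Brunner's glands, Tff2 (4.48 to 5.23), Pgc, Bpifb1 and Egf were below the array medians on all 6 arrays. Agr2, which goblet cells also express, was at 12.43 to 13.73, and 1 further member was high on all arrays too. Egf (0.67) and Agr2 were higher, and 1 of these 2 was called without abemaciclib replicate A or palbociclib replicate A or C and with the RNA quality measure.

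Enzymes and carriers that clear drugs were lower in part. Of 31, 11 were lower and 0 higher (median -0.50). Abcc2, an apical exporter of conjugates, was at 8.01, 8.38 and 6.67 with abemaciclib and 10.45, 11.15 and 9.82 with palbociclib (6.91-fold lower, limma adjusted p = 0.00129). The cytochromes P450 Cyp2j4 (2.41-fold), Cyp3a18 (2.36-fold) and Cyp3a9 (1.95-fold), the glucuronosyltransferase Ugt2b10 (2.17-fold) and the sulfotransferase Sult1b1 (1.69-fold) were lower. Cyp1a1 was at 8.05, 7.26 and 6.41 against 9.71, 10.03 and 8.06 and did not pass (-2.03, interval -4.92 to 0.86, adjusted p = 0.32), with vehicle arrays spread from 5.20 to 12.92. The 11 became 7 without abemaciclib replicate A, 6 with the RNA quality measure and 17 with centring on the genes analysed. Of 15 NRF2 targets, Nqo1 (4.03-fold) and Slc7a11, with overlapping arrays, were higher and Akr1b8 (2.54-fold) and Me1 (2.29-fold) lower, with a median of 0.05. The share called was 26.7% beside 18.3% over all genes. Of these 4, 2 were called without abemaciclib replicate A and 1 with the RNA quality measure. With centring on the genes analysed 2 were higher and 5 lower.

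Of 19 genes of retinoid and carotene metabolism, 4 were lower and 0 higher, a share of 21.1% beside 6.86% lower over all genes (median -0.18). Beside Rdh7 and Adh4 these were Lrat, which esterifies retinol (2.93-fold, limma adjusted p = 0.0111), and the retinal reductase Dhrs3 (2.10-fold, adjusted p = 0.0249). Rbp2, the cellular retinol-binding protein of enterocytes, differed by -0.07 and did not pass. Lrat and Dhrs3 lost their calls without abemaciclib replicate A, and the count was 2 with the RNA quality measure and 7 with centring on the genes analysed.

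Part of the lymphocyte genes were lower with abemaciclib than with palbociclib. Of 31 T and NK cell genes, 15 were lower, 0 were higher and 16 did not pass (median -0.41), and relative to vehicle the median was -0.73 with abemaciclib and -0.45 with palbociclib. Of the 15, Cd8b (4.01 with abemaciclib, 4.44 with palbociclib), Klrb1a (3.55, 3.94) and Gata3 (4.81, 5.17) had means below the array medians in both groups. Granzyme B (Gzmb) was at 4.37, 4.76 and 6.49 with abemaciclib and 9.64, 9.20 and 8.23 with palbociclib (14.1-fold lower, limma adjusted p = 0.00209), below vehicle at 10.16, 10.38 and 10.66. The surface protein Cd7 was at 5.53, 5.88 and 7.11 against 9.90, 10.11 and 8.61 (10.3-fold lower, adjusted p = 0.000837). For Gzma, Gzmb and Cd7, abemaciclib replicate C was the highest of its group and palbociclib replicate C the lowest of its own, without overlap. The chemokine Ccl5 (9.83-fold), the kinase Lck (3.19-fold) and the granule protein Nkg7 (2.11-fold) were lower, whereas Cd4 (-0.15) and Cd2 (-0.17) did not pass. The mean log2 level over the 31 genes was 4.74 to 5.18 with abemaciclib, 5.70 to 6.07 with palbociclib and 6.39 to 6.57 in vehicle. The abemaciclib values lay below the array medians. In a scraping, fewer cells of a type and less RNA per cell cannot be told apart. The count of 15 became 7 without abemaciclib replicate A and 8 without palbociclib replicate A, and 15 with the RNA quality measure.

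MHC class II genes, which present antigen to CD4 T cells, had the lowest list median in the comparison, -2.63 (6.20-fold lower), with 8 of 9 lower. The median was -3.18 relative to vehicle with abemaciclib and -0.45 with palbociclib. Cd74, the invariant chain, was at 8.32, 10.48 and 10.04 with abemaciclib and 12.64, 12.68 and 11.43 with palbociclib (-2.64, SE 0.46, 6.22-fold lower, limma adjusted p = 0.00124). RT1-Da was at 7.03, 10.49 and 10.19 against 12.27, 12.14 and 11.20 (6.20-fold lower, adjusted p = 0.00728), so abemaciclib replicate A was lowest for both. RT1-DMb and RT1-DMa, which load peptides, were 7.25-fold and 3.34-fold lower, RT1-Ba 8.17-fold and the protease Ctss 1.53-fold. Ciita, the coactivator that switches these genes on, differed by -0.35 and did not pass. Other RT1-Ba probe sets differed by -1.97, -0.43 and -0.50 and did not pass, and another RT1-Bb probe set by 0.99. The CCAAT letters, part of the shared class II promoter architecture, were in 7 of 7 promoters, against 37.7% of all and 37.3% of those of genes compared. They were also in 81.2% of cholesterol synthesis, 76.1% of G2/M, 60.0% of G1/S and 23.8% of ribosome biogenesis promoters. The count was 6 without abemaciclib replicate A, 5 without palbociclib replicate A and 3 with the RNA quality measure.

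Markers of macrophages and dendritic cells, which also carry class II, had 4 of 23 lower, a share of 17.4% beside 6.86% lower over all genes (median -0.42, and -0.94 and -0.56 relative to vehicle): Itgax (-1.86), Clec9a (-1.42), Fcer1g (-1.33) and Tyrobp (-1.11). Cd68 (-0.08) and Cd163 (-0.48) did not pass. The count was 2 without abemaciclib replicate A or B or palbociclib replicate A or B and with the RNA quality measure, and 10 with centring on the genes analysed. Their mean level was 5.47 to 6.27 with abemaciclib and 6.06 to 6.75 with palbociclib, and its part in the class II values was not tested. Of 11 B and plasma cell genes 1 was lower, Cd22 (-0.70), of 16 mast cell genes 1, the protease Mcpt9 (-3.03), and of 11 neutrophil genes 1, the protease Mmp9 (-1.45). With centring on the genes analysed these lists had 4, 4 and 2 lower, and Cd22 and Mmp9 lost their calls in some fits without an array.

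Interferon-stimulated genes were lower in 9 of 40 (22.5%, beside 6.86% lower over all genes) and higher in 0, with a median of -0.66. Irf7, the factor that amplifies interferon production, was at 7.92, 7.94 and 6.84 with abemaciclib and 10.27, 9.96 and 10.44 with palbociclib (6.33-fold lower, limma adjusted p = 0.00805). The antiviral protein Rsad2 was at 9.37, 9.04 and 7.02 against 11.12, 11.35 and 10.50 (5.71-fold lower, adjusted p = 0.00986). The GTPase Igtp (at least 3.38-fold), the factor Irf1 (3.93-fold) and Parp14 (2.61-fold) were lower, and Mx1 (-0.01) and Tap1 (-0.03) did not pass. The count was 4 to 6 with any 1 array left out, 0 with the RNA quality measure (7 at an unadjusted p under 0.05 in limma), 18 when only the 2 groups were fitted and 16 with centring on the genes analysed.

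**Figure D4:**
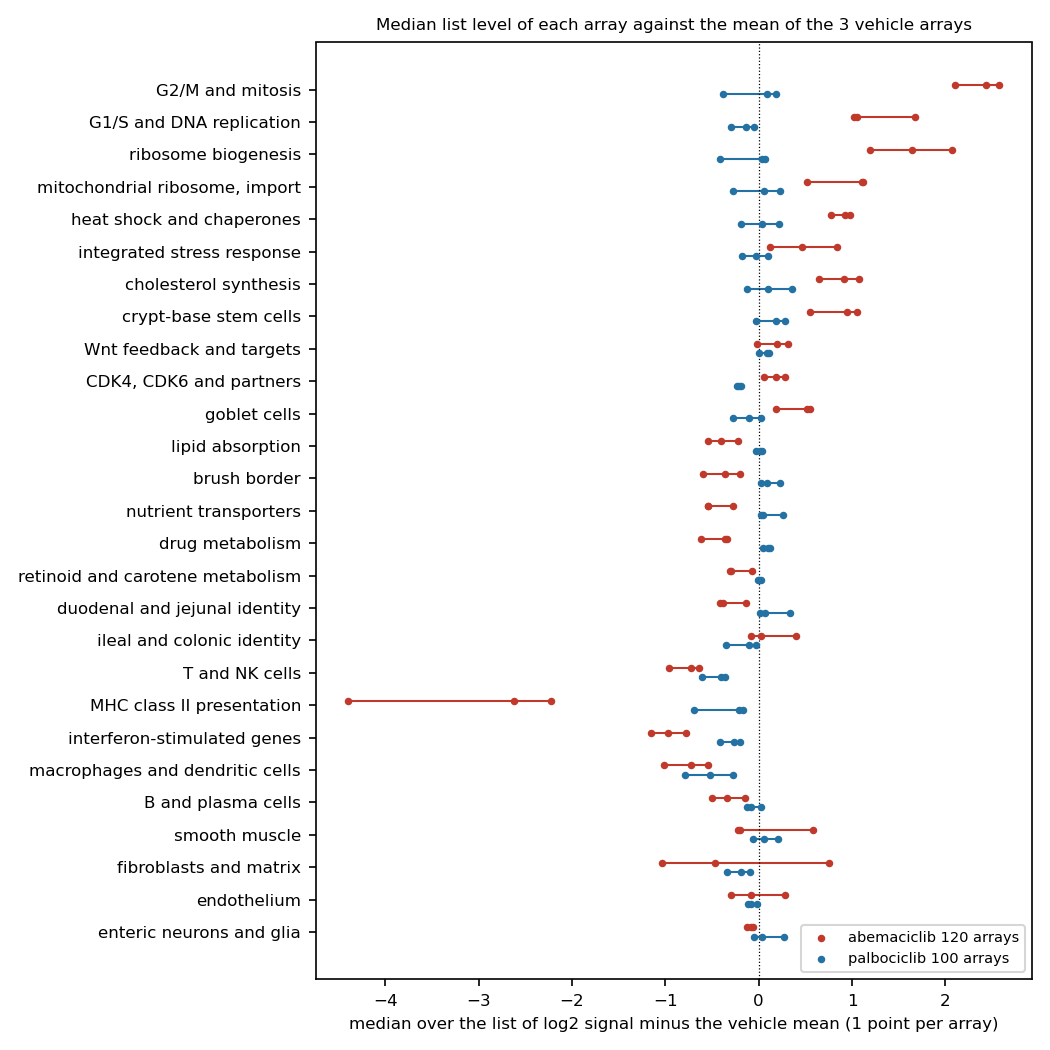
Median over each gene list of log2 signal minus the mean of the 3 vehicle arrays, 1 point per abemaciclib 120 (red) or palbociclib 100 (blue) array, joined by the range. For G2/M and mitosis the abemaciclib arrays lie between 2.10 and 2.58 and the palbociclib arrays between -0.38 and 0.19; for MHC class II presentation they lie between -4.40 and -2.23 and between -0.69 and -0.17.

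Of 25 genes of epithelial injury and repair, 3 were higher and 3 lower (median 0.11), a share of 24.0% called beside 18.3% over all genes. The peroxide-producing oxidase Duox2 was at 7.89, 7.28 and 8.01 with abemaciclib and 5.95, 4.79 and 4.95 with palbociclib (5.65-fold, limma adjusted p = 0.00282), and Anxa8 (2.62-fold) and the keratin Krt7 (1.91-fold) were higher. The antimicrobial lectins Reg3b and Reg3g were lower with Reg1a. Reg3b was at 9.35, 10.34 and 13.25 against 13.58, 13.27 and 13.25 (5.24-fold lower, adjusted p = 0.0137), so abemaciclib replicate C was at the palbociclib level. Its call was lost without abemaciclib replicate A or palbociclib replicate A and when only these groups were fitted. Of 19 p53 targets and death genes, Aen (1.99-fold) and Plk2 (2.38-fold) were higher, and the death ligand Tnfsf10 (2.90-fold), the death receptor Fas (1.76-fold) and Sesn1 (2.37-fold) were lower. Plk2 arrays overlapped, at 8.87, 7.35 and 8.78 with abemaciclib and 7.46, 7.05 and 6.76 with palbociclib. Another Aen probe set differed by 0.05, and others of Fas by -0.26 and -0.16. The injury and repair count was 2 without abemaciclib replicate A and with the RNA quality measure, and 3 higher and 6 lower with centring on the genes analysed. The p53 count was 2 without abemaciclib replicate A or C, 3 without palbociclib replicate A, with quantile normalization or with the mean of all probe sets, and 1 with the RNA quality measure. The lysosome list had 2 of 26 higher and 5 lower (median -0.18). In all it had 3 or 4 calls without abemaciclib replicate A or C or palbociclib replicate A or B. With the RNA quality measure it had 1. Calls made up 26.3% of the p53 list and 26.9% of the lysosome list, beside the same 18.3%.

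A smaller set of called genes lay farther from vehicle with palbociclib. Among the 6 with the largest such difference, Sult6b2 was at 7.83, 6.30 and 9.40 with abemaciclib, 11.91, 13.11 and 11.25 with palbociclib and 10.48, 8.47 and 9.87 in vehicle (limma adjusted p = 0.0136). Dbp, a clock-controlled transcription factor, was at 5.27, 5.49 and 5.40 with abemaciclib, 8.81, 7.60 and 8.79 with palbociclib and 6.99, 7.06 and 5.68 in vehicle (8.08-fold lower with abemaciclib, adjusted p = 0.00609). In both genes the vehicle mean lay between the 2 groups. The iron exporter Slc40a1 was at 6.84, 9.41 and 7.10 with abemaciclib and 10.35, 12.03 and 9.98 with palbociclib, and Tnfsf13, a B cell survival factor, at 6.59, 6.51 and 6.21 against 7.82, 8.95 and 7.60. Both were higher with palbociclib than on any vehicle array. Ldaf1, a lipid droplet protein, at 8.25, 8.04 and 8.32 against 7.27, 7.56 and 6.77, and the lipid flippase Atp11a, at 9.01, 9.27 and 8.82 against 7.80, 7.05 and 7.44, were lower with palbociclib than on any vehicle array. Dbp was called in every fit without an array, and the other 5 each lost their call in at least 1. Another Atp11a probe set differed by 0.20. Of 16 clock genes, Nr1d1 (-2.84) and Nr1d2 (-1.65), repressors of the clock, were lower with Dbp, a share of 18.8% beside 6.86% lower over all genes, and Bmal1 (0.51) and Per2 (-0.08) did not pass. The count was 1 without abemaciclib replicate A and with the RNA quality measure. The time of day at sampling is not given in the labels.

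Other lists had shares of calls near or below the 18.3% over all genes. Fasting, PPAR and glucocorticoid genes had 2 of 27 higher and 3 lower (median -0.10, 18.5% called). Immediate early genes had 3 of 25 higher (12.0%, beside 11.4% higher over all genes), Egr1 (2.86), Myc and Ier2 (1.07). The first list had 3 lower alone with the RNA quality measure or without any 1 palbociclib array, 2 higher and 6 lower without abemaciclib replicate B, and 2 higher and 8 lower with centring on the genes analysed. The second had 1 higher with the RNA quality measure and 6 without abemaciclib replicate B. Cells from deeper layers and other organs gave few calls in limma: 1 of 16 smooth muscle genes, Smtn (0.72), 0 of 24 fibroblast and matrix genes, 0 of 16 endothelial genes, 0 of 14 genes of enteric neurons and glia, 0 of 7 erythrocyte genes (1, 1, 2 and 0 of these 4 lists at an unadjusted p under 0.05) and, of 20 pancreatic acinar genes, Cela1 (1.32) and Reg1a. The Smtn call was lost in 5 of the 6 fits without an array, and with centring on the genes analysed the smooth muscle list had 0 higher and 2 lower and the acinar list 1 higher and 7 lower. The mean level of the fibroblast list was 5.09 to 7.03 with abemaciclib and 5.71 to 6.01 with palbociclib, and that of smooth muscle 5.68 to 6.59 and 5.95 to 6.29, highest on abemaciclib replicate B for both. Without that array 2643 genes were called. At an unadjusted p under 0.05 limma gave 4550 genes over the whole comparison.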

How the data were processed

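RNA of rat jejunal mucosal scrapings was hybridised to Affymetrix arrays, 3 per group in 6 groups. The values are log2 signals per probe set that the authors deposited, and Transcriptome Analysis Console, Expression Console and RMA are named without versions in the submitters' processing notes. RMA as usually run equalises arrays, so a change in total RNA per cell would not be visible. Arrays carry no read depth, and their number limits the precision.

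Of 31099 probe sets, 57 controls were left out and 20826 had 1 gene symbol in the platform annotation, which gave 14217 genes, each read from its probe set with the highest mean. Group means were estimated from the 18 arrays together (limma 3.58.1, R 4.3.3, eBayes with an intensity trend, 12 residual degrees of freedom), and abemaciclib 120 was set against palbociclib 100, two-sided, with Benjamini-Hochberg adjustment over all genes. The step was tested on simulated data. With 3 arrays a group, the smallest p of an exact permutation test is 0.1. Intervals are 95% intervals of that model.

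Members and lists, 45 in all, were chosen with earlier results of these data known. Genes named are the 10 largest rises and falls among called genes whose arrays do not overlap, 6 called genes with palbociclib farther from vehicle, up to 6 members of smallest p in lists with at least 20% called, well-known members that did not pass, and 24 fixed genes. A gene named outside this rule, as where a count of 5 or fewer is spelled out, was chosen after its values were seen. Lists are described by counts and medians, with no test of the list. Promoters are from RefSeq (GRCr8). Alternatives were other normalization, centring, filters, probe set rules, model settings, a replicate block, an RNA quality measure and leaving out each array.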

Additional observations from a re-analysis of the deposited data

How the results depend on the processing

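Of the 160 called named genes 0 changed sign under the alternatives in which they were measured, and of the 24 that did not pass 4 did, Tff2 and Pou2f3 among them. Medians of 14 of the 45 lists, none over 0.13 in size, changed sign under at least 1 alternative, and 4 lists had more calls in the other direction: CDK9 and smooth muscle with centring on the genes analysed, neutrophils without abemaciclib replicate B, and cholesterol synthesis, where 1 fall was left, with the RNA quality measure and in 3 fits without an array. Against 2598 calls (1623 higher, 975 lower), centring on the genes analysed, added after seeing the data, gave 4317 with 1226 higher and 3091 lower, which turned the majority, and the RNA quality measure gave 970 with 543 higher and 427 lower, 917 of them among the 2598. Leaving out 1 array gave 1344 to 2643 calls, 877 to 1688 higher and 467 to 955 lower, fewest without abemaciclib replicate A and without palbociclib replicate A. Lists that kept 0 or 1 call with the RNA quality measure did not all shrink in median. The median went from 0.86 to 0.85 for heat shock and chaperone genes and from 0.65 to 0.75 for cholesterol synthesis. It went from 0.89 to 0.71 for mitochondrial ribosomal proteins and import, and from -0.66 to -0.48 for interferon-stimulated genes. The cause of the changes in the counts was not tested. Of the 160 called among 184 named genes, 91 were called in every fit without an array. The other alternatives gave 2298 to 2761 calls, of which the 2456 without the dimmest 30% of genes were among 9952, and 3126 with each of 20826 probe sets as its own feature. With the replicate letter as a replicate block the count was 2761. Deviations of arrays with the same letter correlated at -0.092, -0.083 and 0.102, and those with unlike letters at -0.072 to 0.156. With 3 arrays a group these values cannot show whether the letters pair the arrays, and the main model used no pairing. Of 33 called named genes with another probe set, 15 had one at under 50% of the difference or of the other sign. Signals below the array medians limit what can be said of genes such as Cdk6 and Lgr5, since no detection calls were used.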
